A study of Mus musculus with 6 samples.

Results

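The genes described here encode the machinery of mitosis: the kinases and cyclins that start it, the condensins, the spindle, the kinetochore, the spindle checkpoint and the proteins of anaphase and cytokinesis. A list of 50 such genes was matched by symbol to the annotation of the array's probes, and 42 of them had a probe among 16561 named genes. The other 8, Ccnb1, Smc4, Ncapg, Mki67, Aurkb, Cenpf, Kif20a and Racgap1, were not analysed here. Each gene was read by 1 probe, the brightest of its probes over all arrays. RNA came from TUBO, a mouse line whose source was a mammary tumour of a female BALB-neuT animal, kept attached in all groups and given no treatment, and was hybridised to 6 Illumina bead arrays. By title and growth protocol the 3 TMA arrays hold cells in mammosphere medium, which is DMEM-F12 without serum and with bFGF and EGF (20 ng/ml of each), insulin (5 μg/ml) and bovine serum albumin (0.4%). By the same labels the 3 TDA arrays hold cells in DMEM with fetal calf serum (20%), but the source name of every sample gives the opposite medium. The groups are therefore called TMA and TDA, differences run from TMA minus TDA, and which medium lies behind a direction is not settled by the labels.

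As background, cells enter mitosis when cyclin-dependent kinase 1 is switched on by its B-type cyclins and by CDC25 phosphatases. Condensins then compact the chromosomes, kinesins build the spindle, and kinetochores bind its microtubules while the checkpoint holds back the anaphase-promoting complex until all are attached. Many of these genes are transcribed late in the cell cycle, and their transcripts are therefore used as a measure of proliferation in tumour cells. In RNA from whole cultures, fewer cells in mitosis and less transcript per cell cannot be told apart.

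All 6 arrays lie on 1 BeadChip, the TMA arrays in 3 adjoining positions and the TDA arrays in the next 3, so the group cannot be told apart from the position. The submitters describe experiments done in triplicate, but no label ties a replicate to a culture of its own, so the spread that p-values rest on here may be technical. The mean raw signal was 845 on TDA1 and between 560 and 635 on the other arrays. Of 7 measured epithelial genes 6 were tested and limma called 0, with 3 higher on TMA at an unadjusted p under 0.05. These were the claudin genes Cldn4 and Cldn3 and the cadherin gene Cdh1, with differences of 1.90, 0.71 and 0.47 (adjusted p = 0.0576, 0.108 and 0.231). Averaged over the 7 genes, the log2 signal was 11.18 to 11.65 on TMA against 10.88 to 11.01 on TDA, without overlap, and the part of this difference in the mitotic results was not tested. The keratin genes Krt8 and Krt18 read between 12.66 and 13.60 on every array, while Krt19 was dim throughout and was not tested. Of 32 measured markers of fibroblasts, leukocytes, endothelium and fat cells, 8 were bright enough to be tested, and limma called 0 of them, with 0 at an unadjusted p under 0.05. The pan-leukocyte gene Ptprc was too dim to be tested, while Cd14, a surface receptor of monocytes, read between 13.07 and 14.43. Flt1 of the endothelial list was also bright, between 9.61 and 10.18.

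Mitotic genes were lower on the TMA arrays. Of the 42 measured genes, 32 were bright enough to be tested (a mean log2 signal above 7.01, the median of all probes), all 32 had a lower mean on TMA than on TDA, and 16 fell at an adjusted p under 0.05 in limma, against 1.49% of all 12848 tested probes. None rose in that test, against 1.53%, and 0 were higher at an unadjusted p under 0.05. At an unadjusted p under 0.05, 29 of the 32 were lower, against 8.92% of tested probes, and 18 were at least 2-fold lower, against 1.77%. In all, 387 probes, or 3.01%, passed in either direction. The list was chosen with earlier results of these data known, so these shares describe it and are no independent test of it. The median log2 difference was -0.94 over the 42 genes and -1.03 over the 32 tested, against 0.00 over all tested probes. The 16 genes that fell did so by 2.03-fold to 4.05-fold, with standard errors between 0.23 and 0.42 on the log2 scale. Fold changes refer to the corrected signal plus an offset of 50, which understates the change of dim genes.

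In 25 of the 32 tested genes every TMA array read below every TDA array, against 11.1% of tested probes. In the other 7 the array TDA2 read no higher than the highest TMA array. Without TDA2, a choice made after seeing the data, all 32 had groups that did not overlap, against 18.3% of tested probes. The number of calls depended on single arrays. Without TDA2 it was 26 (2.67% of tested probes) and without TMA1 it was 20 (2.64%), with all 16 genes among them in each case. Without TMA2, TMA3 or TDA1, limma called 0 of the 32 (0.07%, 0.00778% and 0.00778% of tested probes), with 26, 27 and 26 at an unadjusted p under 0.05. Without TDA3 it called 2, Anln and Spc25 (0.366%). With 1 array left out the median difference over the 42 genes stayed between -1.06 and -0.75. It was -0.60 without background correction, with 4 calls (0.817%), -0.95 with median scaling, with 8 calls (0.553%), and -0.59 in the authors' table, with 2 calls (0.623%).

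**Figure D1:**
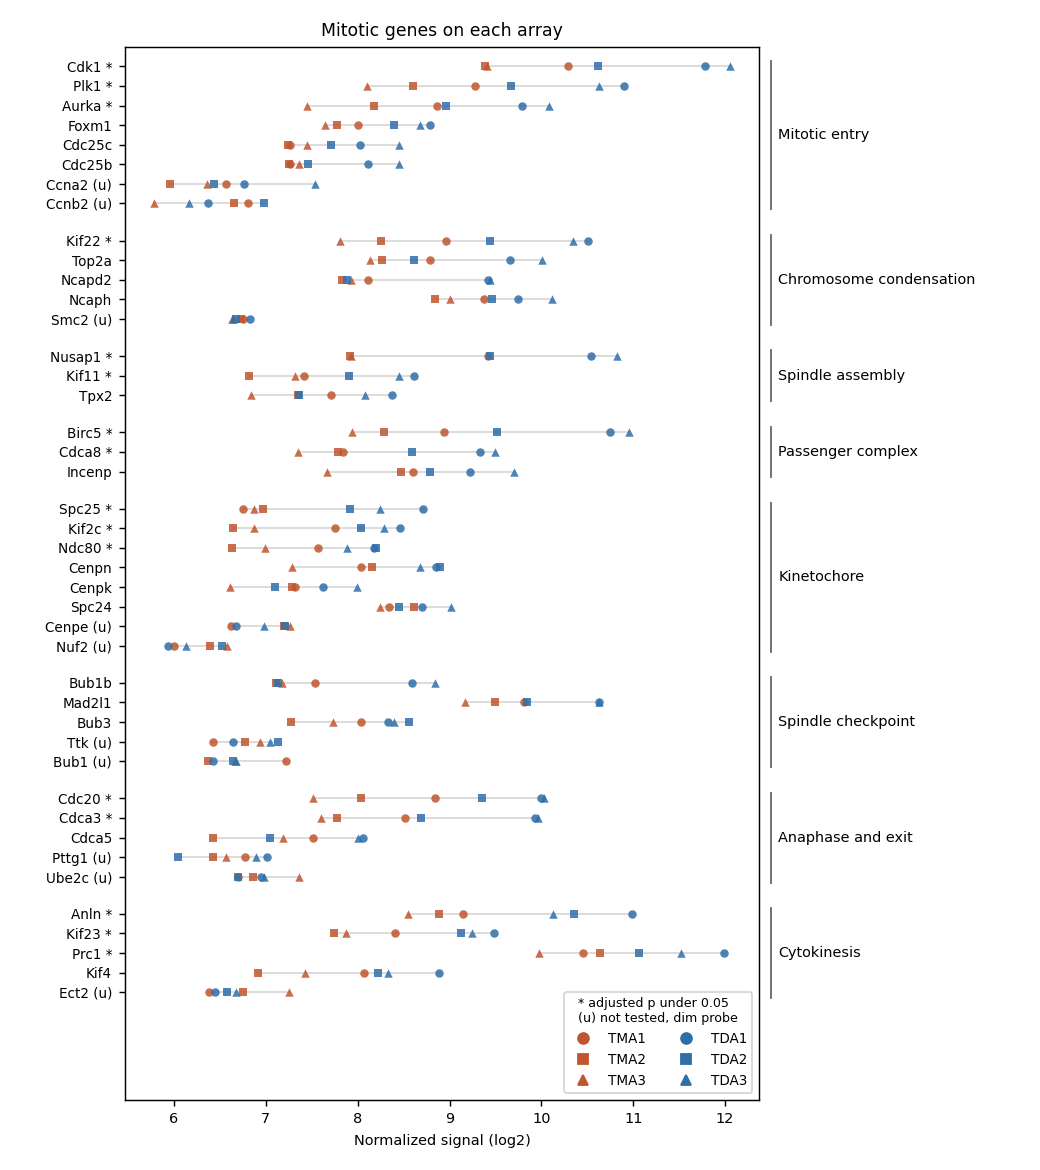
Normalized log2 signal (horizontal axis) of each of the 42 measured mitotic genes (rows, grouped by step) on the 3 TMA arrays (orange) and the 3 TDA arrays (blue). Stars mark the 16 genes with an adjusted p under 0.05, and (u) marks the 10 dim genes that were not tested. In most bright genes TMA2 and TMA3 sit at the left, TDA1 and TDA3 at the right, and TMA1 and TDA2 between them.

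**Figure D2:**
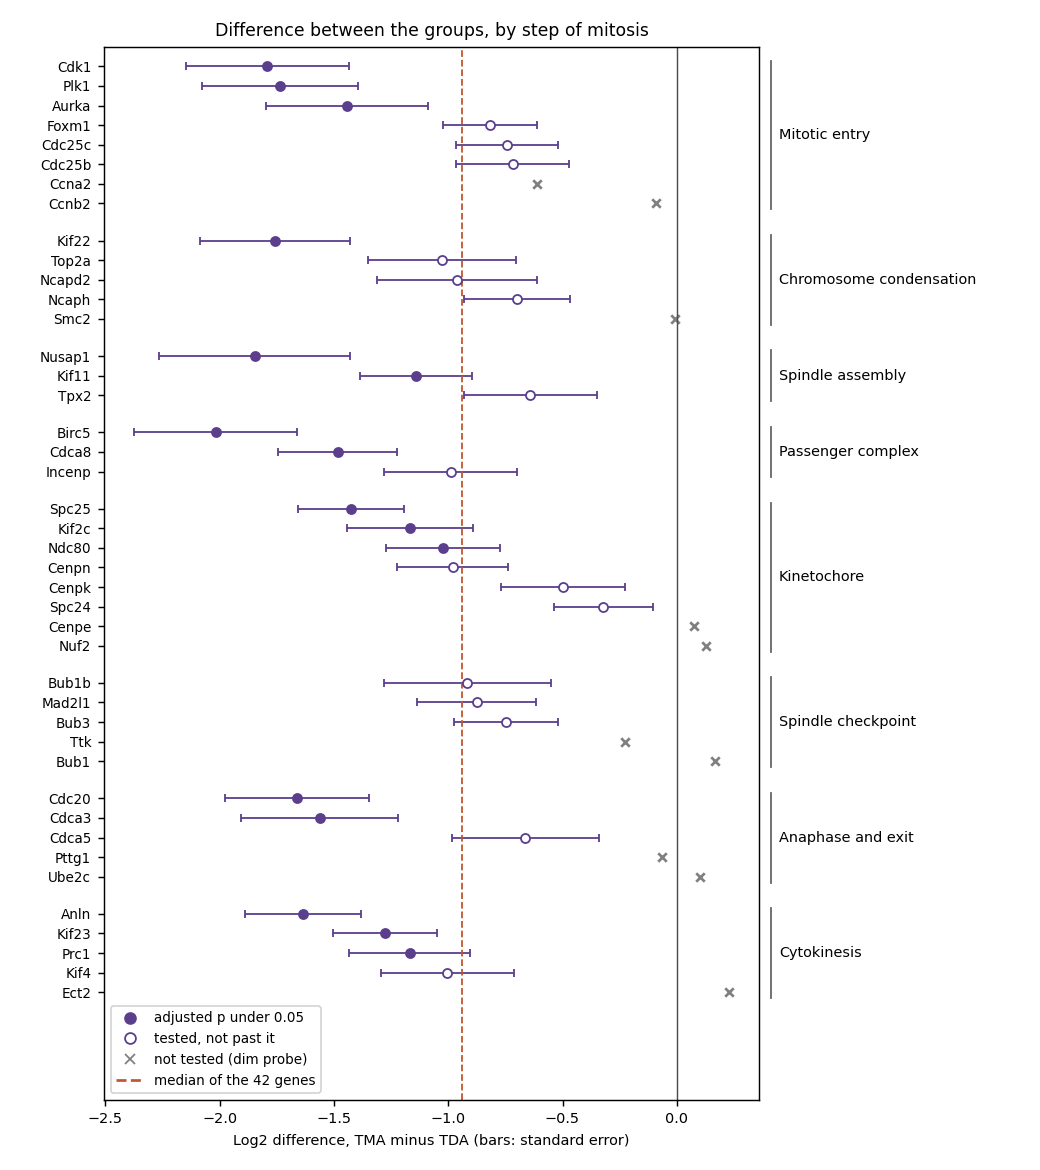
Log2 difference between the group means, TMA minus TDA (horizontal axis), with its standard error, for the same genes by step. Filled points passed an adjusted p of 0.05, open points did not, crosses were not tested, and the dashed line is the median of the 42 genes, -0.94. All tested genes lie to the left of 0.

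Transcription of late cell cycle genes is known to run through a pair of promoter elements, the CCAAT box bound by NF-Y and the CHR element bound by the MuvB complexes together with B-MYB and FOXM1. Promoter windows of RefSeq (GRCm38.p6) reaching from 250 bases before to 50 bases after an annotated start were found for 36 of the 42 genes, in 41 windows. The letters CCAAT were searched on both strands, and were present in 31 of the 41 windows (75.6%) against 37.4% of all 32851 windows. The CHR letters TTTGAA were present in 29 (70.7%) against 17.9%, and both motifs in 25 (61.0%) against 6.95%. Among windows of protein-coding genes CCAAT was present in 38.2% and both motifs in 6.38%. The CCAAT matches had their median position at -63.5 bases from the start, and 44 of 66 lay within the last 100 bases before it. The CHR matches had theirs at -12 bases, and 29 of 38 lay between 100 bases before and 50 bases after the start. Matches were counted by window, so sites shared by the overlapping windows of Ect2, Prc1 and Bub3 count more than once. In 1 place the motifs overlapped. These are matches of letters, and no binding was measured.

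**Figure D3:**
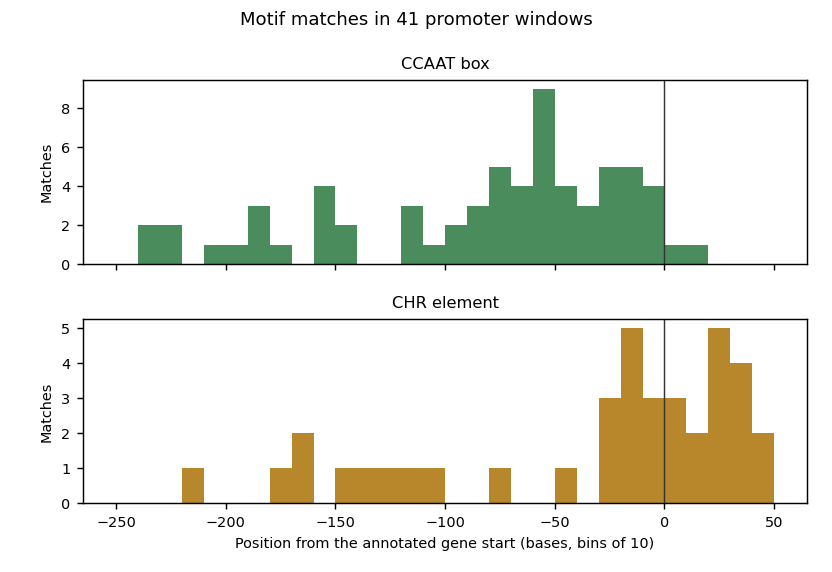
Positions of CCAAT and CHR matches, in bases from the annotated start (0), over the 41 promoter windows of the measured mitotic genes, as counts per bin of 10 bases. CCAAT matches gather before the start, with a median of -63.5, and CHR matches gather around it, with a median of -12. Sites shared by overlapping windows of a gene count more than once.

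The 150 bases before the start are printed for 4 genes that fell and hold a match there, each of a different step, and for Birc5, which fell furthest and holds none. Nusap1 and Anln, which fell furthest in their steps, also hold none there and are not printed. The printed stretches are written in the direction of transcription, with matches to CCAAT or TTTGAA on either strand in capitals. ATTGG and TTCAAA are therefore matches on the opposite strand.
Cdk1 (GRCm38.p6, chr10:69352913-69353062, minus strand): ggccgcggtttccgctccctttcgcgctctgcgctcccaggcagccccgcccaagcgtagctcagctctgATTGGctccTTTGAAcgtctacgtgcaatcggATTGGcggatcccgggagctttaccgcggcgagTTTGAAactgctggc
Kif22 (GRCm38.p6, chr7:127042421-127042570, minus strand): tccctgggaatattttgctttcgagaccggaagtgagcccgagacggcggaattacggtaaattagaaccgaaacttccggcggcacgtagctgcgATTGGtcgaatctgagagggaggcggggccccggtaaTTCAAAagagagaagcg
Spc25 (GRCm38.p6, chr2:69206214-69206363, minus strand): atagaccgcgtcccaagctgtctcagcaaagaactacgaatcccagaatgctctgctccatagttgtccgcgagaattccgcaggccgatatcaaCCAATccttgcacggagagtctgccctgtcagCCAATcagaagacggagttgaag
Cdc20 (GRCm38.p6, chr4:118437344-118437493, minus strand): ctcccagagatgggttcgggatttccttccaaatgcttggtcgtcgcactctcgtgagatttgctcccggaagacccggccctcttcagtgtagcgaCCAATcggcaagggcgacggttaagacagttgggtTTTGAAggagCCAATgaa
Birc5 (GRCm38.p6, chr11:117849087-117849236, plus strand): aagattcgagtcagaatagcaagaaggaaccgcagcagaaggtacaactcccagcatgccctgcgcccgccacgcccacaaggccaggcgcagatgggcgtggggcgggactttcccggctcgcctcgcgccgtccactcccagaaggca
The Cdk1 and Cdc20 stretches hold CCAAT and CHR matches close together, Kif22 holds a CHR match next to its start, and the CHR match of Spc25 lies past the start and is not shown. The 26 genes with a CHR match in a window had a median log2 difference of -1.08, with 14 of their 21 tested members called lower. The 10 genes with none had a median of -0.60, with 2 of 6 tested members called lower. Those 2, Birc5 and Nusap1, had the 2 largest differences of all. For CCAAT the medians were nearly equal, -0.99 over 26 genes with a match and -0.95 over 10 without. The CHR medians include dim, untested genes: 21 of the 26 genes with a CHR match were tested, but only 6 of the 10 without. The median difference of the 10 untested genes of the list was 0.03, so probe brightness enters the CHR medians. None of these differences between genes with and without a match was tested, and no match says only that the letters are not in this window.

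The switch into mitosis was represented by 8 measured genes, of which 6 were tested and 3 fell, with a median log2 difference of -0.78 over the 8. Cdk1, the kinase that drives entry, read 10.29, 9.39 and 9.40 on TMA against 11.78, 10.62 and 12.06 on TDA, as log2 signal with arrays 1, 2 and 3 in order here and for every gene. The groups did not overlap, but TDA2 lay nearer to TMA1 than to the other TDA arrays. The Cdk1 difference was -1.79 ± 0.36 (standard error, limma adjusted p = 0.0234), or 3.46-fold. In raw signal, before any correction, Cdk1 read 1379, 767 and 876 on TMA against 5560, 1535 and 3508 on TDA. Plk1, the kinase of centrosome maturation, read 9.28, 8.60 and 8.10 against 10.89, 9.67 and 10.63, again without overlap. It fell by 1.74 (limma adjusted p = 0.0234). Aurka, the centrosomal Aurora kinase, read 8.86, 8.18 and 7.45 against 9.79, 8.96 and 10.08, and TMA1 and TDA2 were nearly level. Its difference of -1.44 ± 0.35 passed most narrowly (adjusted p = 0.04998).

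The other entry genes did not pass or were not tested. Foxm1, the transcription factor of the G2 and M phases, differed by -0.82 ± 0.20 and missed the threshold (adjusted p = 0.0543), although its groups did not overlap. It read 8.00, 7.77 and 7.64 on TMA against 8.78, 8.39 and 8.68 on TDA, so all 3 TDA arrays were high on this probe. On its other probe the groups overlapped, with TDA2 at 7.74 below TMA1 at 7.79. That probe differed by -0.83 and did not pass either (adjusted p = 0.125). The phosphatase genes Cdc25b and Cdc25c, which activate CDK1, differed by -0.72 and -0.74 without overlap (adjusted p = 0.139 and 0.0953). Another tested Cdc25c probe differed by -0.79 with overlapping groups, TDA2 lying below TMA1 (adjusted p = 0.216). The cyclin genes Ccna2 and Ccnb2 were read by dim probes and were not tested, with differences of -0.61 and -0.09 and overlapping groups.

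Chromosome condensation was represented by 5 genes, of which 4 were tested and 1 fell. Kif22, a chromokinesin that pushes chromosome arms towards the spindle equator, read 8.97, 8.25 and 7.80 on TMA against 10.51, 9.44 and 10.34 on TDA. Every TDA array was higher, and the difference was -1.76 ± 0.33 (limma adjusted p = 0.0195), or 3.38-fold. Top2a, the topoisomerase that disentangles sister chromatids, read 8.79, 8.26 and 8.14 against 9.65, 8.61 and 10.01. TDA2 lay below TMA1 there, and the difference of -1.03 did not pass (adjusted p = 0.109). The condensin I subunit Ncapd2 was split on its brightest probe, at 9.42 and 9.44 on TDA1 and TDA3 but 7.89 on TDA2. That TDA2 value lay inside the TMA range of 7.83 to 8.11, and the difference was -0.96 (adjusted p = 0.160). A dimmer Ncapd2 probe differed by -0.55 without overlap (adjusted p = 0.193), with TDA2 at 7.44 near TDA1 at 7.51. Its untested probe differed by -0.37 with overlapping groups. The condensin I subunit Ncaph differed by -0.70 (adjusted p = 0.123). Smc2, the core condensin ATPase, was too dim to be tested.

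All 3 spindle assembly genes were tested and 2 fell. Nusap1, which bundles spindle microtubules, had the second largest difference of the 42 genes, at -1.85 ± 0.42 (limma adjusted p = 0.0399). Its values were 9.42, 7.91 and 7.92 on TMA against 10.54, 9.44 and 10.82 on TDA. TMA1 and TDA2 were almost level, TMA2 and TMA3 lay far below them, and TDA1 and TDA3 far above. Kif11, the kinesin that pushes the spindle poles apart, read 7.42, 6.81 and 7.31 against 8.61, 7.91 and 8.45 and fell by 1.14 (adjusted p = 0.0320). Every TDA array was higher than every TMA array. Tpx2, which activates Aurora A on the spindle, differed by -0.64 with overlapping groups (adjusted p = 0.263).

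The chromosomal passenger complex, which corrects faulty attachments through Aurora B, had 3 measured subunits, all tested, and 2 fell. Birc5, the survivin subunit, had the largest difference of the 42 genes. It read 8.93, 8.28 and 7.94 on TMA against 10.74, 9.51 and 10.95 on TDA, without overlap. The difference was -2.02 ± 0.36 (limma adjusted p = 0.0149), or 4.05-fold, and its other probes differed by -1.99 and -1.94 and also passed. Cdca8, the borealin subunit, read 7.84, 7.78 and 7.34 against 9.33, 8.59 and 9.49. Its TMA arrays lay close together, and it fell by 1.48 (adjusted p = 0.0136). Incenp, the scaffold of the complex, differed by -0.99 without overlap and did not pass (adjusted p = 0.0881).

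Of 8 kinetochore genes 6 were tested and 3 fell, with a median of -0.74 over the 8. Spc25, a subunit of the NDC80 complex that grips microtubule ends, read 6.74, 6.97 and 6.87 on TMA against 8.71, 7.91 and 8.24 on TDA. The difference was -1.43 ± 0.23 (limma adjusted p = 0.0117), and its other probe differed by -0.90 (adjusted p = 0.112). On TMA the Spc25 mean of 6.86 lay under the brightness cut of 7.01, so the gene was tested only because of its TDA signal, and the size of the difference rests on a TMA signal no brighter than that of untested probes. It was the 1 member tested for which this held. Its partner Ndc80 read 7.56, 6.63 and 6.99 against 8.17, 8.20 and 7.88 and fell by 1.02 (adjusted p = 0.0472). Here TDA2 was the highest array, unlike in most of the genes above. The depolymerising kinesin Kif2c, which removes wrongly attached microtubules, fell by 1.17 (adjusted p = 0.0442). A further subunit of the same complex, Spc24, differed by -0.32 with overlapping groups on its brightest probe (adjusted p = 0.480). Its other probe differed by -0.63 without overlap and did not pass either (adjusted p = 0.106). Cenpn, which reads the centromeric nucleosome, differed by -0.98 without overlap and lay just outside the threshold (adjusted p = 0.0530), and Cenpk differed by -0.50 (adjusted p = 0.363). Nuf2 and the motor gene Cenpe were dim and untested, at 0.13 and 0.07.

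Limma called 0 of the 3 tested checkpoint genes, all 3 of which had an unadjusted p under 0.05. Mad2l1, the checkpoint protein that inhibits CDC20, read 9.81, 9.49 and 9.17 on TMA against 10.63, 9.84 and 10.63 on TDA. TMA1 and TDA2 were almost level, and the difference was -0.88 ± 0.26 (adjusted p = 0.0925). Bub3, which recruits the checkpoint kinases to kinetochores, read 8.04, 7.28 and 7.73 against 8.33, 8.56 and 8.39, with the TDA arrays close together, and differed by -0.75 (adjusted p = 0.0975). Bub1b, the BUBR1 gene, read 7.54, 7.11 and 7.18 against 8.59, 7.13 and 8.84. TDA2 lay inside the TMA range, and the difference of -0.92 had an adjusted p of 0.198. The kinase genes Bub1 and Ttk were dim and untested, at 0.17 and -0.23.

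Anaphase and exit were represented by 5 genes, of which 3 were tested and 2 fell. Cdc20, the activator that turns the anaphase-promoting complex on its mitotic targets, read 8.84, 8.04 and 7.51 on TMA against 9.99, 9.35 and 10.03 on TDA. The groups stood apart, with a difference of -1.66 ± 0.31 (limma adjusted p = 0.0200), and all 4 Cdc20 probes fell, by 0.96 to 1.66. Cdca3, which helps to degrade the CDK1 inhibitor WEE1, read 8.52, 7.77 and 7.60 against 9.93, 8.69 and 9.96 and fell by 1.56 (adjusted p = 0.0342). TDA2 again lay close to TMA1 on this probe. The other Cdca3 probe differed by -0.99 without overlap and did not pass (adjusted p = 0.0551). There TDA2 read 8.07, above TDA1 at 7.90 and TMA1 at 7.53. Cdca5, the sororin gene that protects sister chromatid cohesion, differed by -0.66 with TDA2 below both TMA1 and TMA3 (adjusted p = 0.302). The securin gene Pttg1 and the ubiquitin-conjugating enzyme gene Ube2c were dim and untested, at -0.07 and 0.10.

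Of 5 cytokinesis genes 4 were tested and 3 fell, with a median of -1.17 over the 5. Anln, the anillin that scaffolds the contractile ring, read 9.14, 8.88 and 8.54 on TMA against 10.99, 10.36 and 10.13 on TDA. Its groups did not overlap, and its difference of -1.64 ± 0.26 had the smallest adjusted p of the 42 genes (limma, 0.00988). Its other probes differed by far less, by -0.40 (adjusted p = 0.289) and, untested, by -0.39. With the median over its probes the Anln difference was -0.40 and the call was lost (adjusted p = 0.2495). Kif23, the motor of the centralspindlin complex, read 8.41, 7.74 and 7.87 against 9.49, 9.12 and 9.24 and fell by 1.28 (adjusted p = 0.0149). All 3 TDA arrays agreed closely for it. Prc1, which bundles the midzone microtubules, read 10.45, 10.63 and 9.97 against 11.99, 11.06 and 11.52 and fell by 1.17 (adjusted p = 0.0399). Kif4, the midzone kinesin that works with PRC1, read 2.01-fold lower without overlap and did not pass (adjusted p = 0.0847). Ect2, the activator of RhoA at the cleavage furrow, was dim and untested, at 0.23.

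Within each group the mitotic genes did not read alike on the 3 arrays. Among the TDA arrays TDA2 was the lowest in 31 of the 42 genes (73.8%), against 38.9% of tested probes. Among the TMA arrays TMA1 was the highest in 31 of the 42 (73.8%), against 35.4%. Averaged over the 32 tested genes the log2 signal was 8.38, 7.90 and 7.76 on TMA against 9.40, 8.68 and 9.40 on TDA. TDA2 thus stood nearest to TMA1, and TDA1 and TDA3 stood level, although their mean raw signals were 845 and 560.

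In the 32 tested genes TDA2 lay at a median of -0.70 from the mean of TDA1 and TDA3, from -1.58 for Bub1b to 0.20 for Bub3. By step, over the measured genes, this median distance was -0.99 in condensation, -0.92 in anaphase and exit, -0.87 in spindle assembly, -0.82 in the passenger complex and -0.77 in mitotic entry. It was -0.25 in cytokinesis, -0.11 at the kinetochore and 0.10 in the checkpoint, where 2 of the 5 genes were untested. The checkpoint median is the value of Bub1, a dim and untested gene. The tested checkpoint genes Bub1b, Mad2l1 and Bub3 stood at -1.58, -0.79 and 0.20. At the kinetochore the untested Nuf2 and Cenpe stood at 0.49 and 0.39, and the tested genes between -0.71 and 0.17. Dim probes therefore enter these medians. Over all tested probes the median distance was 0.00. On TMA1 the median distance from the mean of TMA2 and TMA3 ran from 0.43 to 0.71 in 7 of the 8 steps and was 0.11 at the kinetochore. The untested Nuf2 and Cenpe, at -0.48 and -0.60, enter that kinetochore value as well. Differences between steps were not tested.

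**Figure D4:**
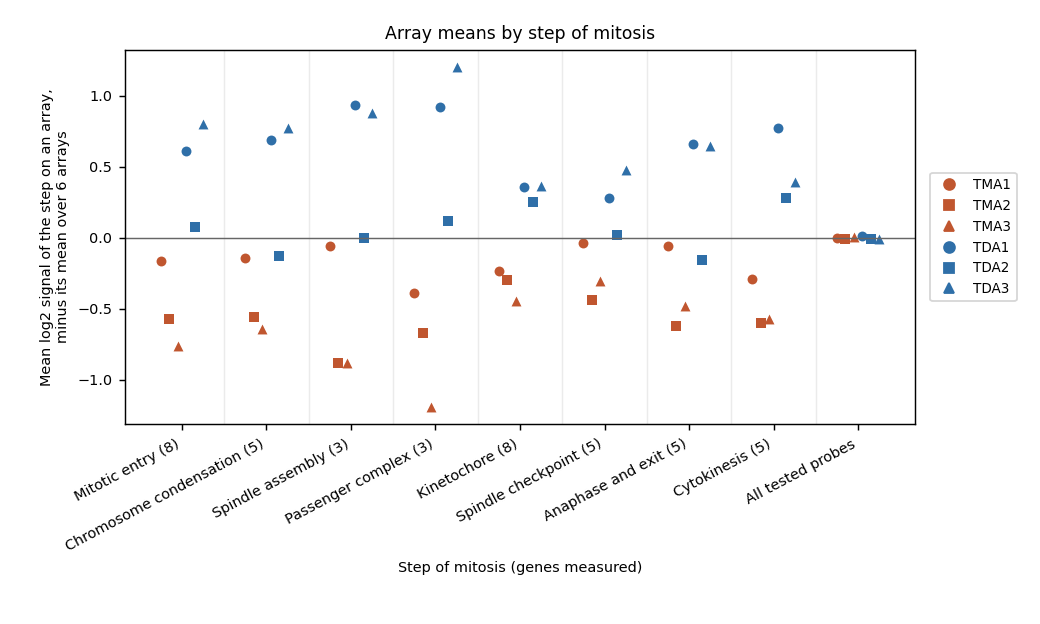
Mean log2 signal of the genes of each step on each array, minus that step's mean over the 6 arrays (vertical axis), for TMA (orange) and TDA (blue), with all tested probes at the right. TDA2 (blue squares) lies below TDA1 and TDA3 in every step and below TMA1 (orange circles) or within 0.1 of it in condensation, spindle assembly, the checkpoint and anaphase and exit, while all tested probes stay near 0.

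For 15 of the 42 genes other probes were present, 24 in all. Of these 15 were tested, all 15 were lower on TMA, and 5 passed, those of Birc5 and Cdc20. The other tested ones differed by -0.99 to -0.40, and the 9 untested ones by -0.39 to 0.32. Dim probes of genes that fell differed little: the other Cdk1 probes, both untested, differed by -0.34 and 0.09, the other Nusap1 probes -0.29 and 0.05, the other Ndc80 probe 0.32, and the dimmest Anln probe -0.39. The 10 untested genes, each with 1 probe, had mean log2 signals between 6.26 and 6.99, groups that overlapped, and differences between -0.61 and 0.23. The table has no detection p-values, and whether these probes read their transcripts was not tested.

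**Figure D5:**
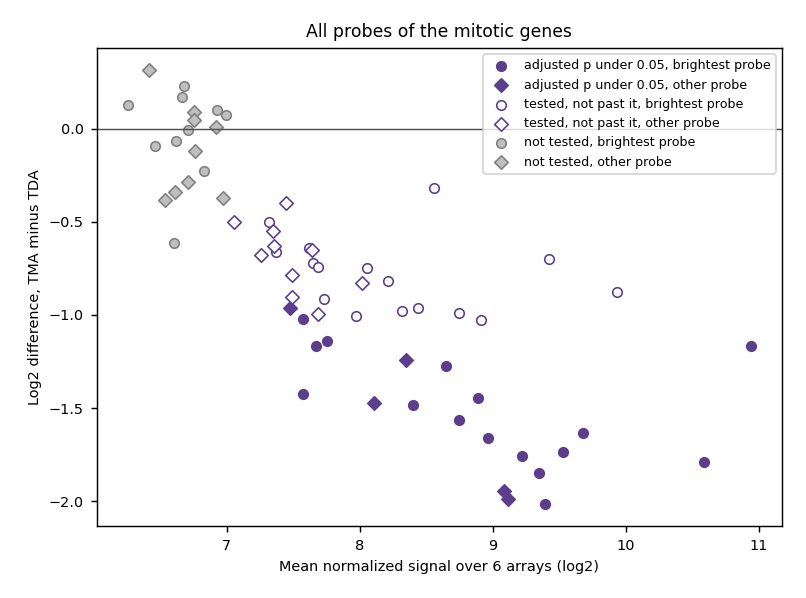
Log2 difference, TMA minus TDA (vertical axis), against the mean log2 signal over 6 arrays (horizontal axis) for all 66 probes of the 42 genes. Circles are the probes used, diamonds the other probes of the same genes, and filled purple symbols passed an adjusted p of 0.05. Probes with a mean below about 7 scatter around 0, and all brighter probes are lower on TMA.

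Further mitotic genes outside the list of 50 were lower as well, in smaller numbers. Of 104 such genes 89 were measured, with a median of -0.39, and 63 were tested. In limma 11 fell and 0 rose, against 1.49% and 1.53% of all tested probes. At an unadjusted p under 0.05 in either direction there were 34, against 2379 of all 12848 tested probes. These shares are the background for each list below. At the kinetochore 5 of 14 tested genes fell. They were Cenpt, Cenpa, Pmf1, Ska2 and Cenpm, with differences of -1.45, -1.29, -1.27, -1.06 and -1.03, of which the histone H3 variant Cenpa marks the centromere itself. Of 11 tested spindle genes only the kinesin gene Kif15 fell, by 1.22 (adjusted p = 0.0489), from 7.89 on TDA to a TMA mean of 6.68 that lay under the brightness cut. Spag5, the astrin gene, differed by -1.58 with TDA2 below TMA1 (adjusted p = 0.0573).

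Of 6 tested cohesin and separase genes Sgo1, which shields centromeric cohesin, fell by 1.43 (adjusted p = 0.0134), also to a TMA mean under that cut, 6.88. Of 6 tested kinase and cyclin-partner genes the kinase gene Pbk fell by 2.04 (adjusted p = 0.0278). It read 9.62, 7.68 and 8.17 on TMA against 10.99, 9.89 and 10.71 on TDA. TMA1 therefore lay closer to TDA2 than to TMA2. Of 7 tested tubulin genes 3 fell: Tuba1b, Tubb5 and Tuba1a differed by -1.59, -1.41 and -1.12, though tubulin genes are so alike that a probe may read its paralogs.

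Limma called 0 of 10 tested subunits and partners of the anaphase-promoting complex, with 0 at an unadjusted p under 0.05 and a median of -0.04 over the 10. Anapc11 and Anapc4 differed by 0.39 and -0.45 (adjusted p = 0.295 and 0.342). It also called 0 of 3 condensin II, 0 of 4 B-MYB and MuvB and 0 of 2 abscission genes, with 3, 3 and 0 at an unadjusted p under 0.05. Ncaph2 and Ncapg2 of condensin II differed by -0.61 and -0.57 (adjusted p = 0.169 and 0.201), Lin54 and the pocket protein gene Rbl1 by -0.73 and -0.85 (adjusted p = 0.116 and 0.117), and Septin9 and Chmp4b by 0.45 and 0.17 (adjusted p = 0.380 and 0.819).

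DNA replication genes are given beside these for comparison, with no test of the difference. Of 11 tested, 9 fell, against 1.49% of all tested probes, with a median of -1.13 over the 14 measured. On the TDA arrays their median distance of TDA2 from TDA1 and TDA3 was -0.18, where that of the 42 mitotic genes was -0.64. For the 89 further mitotic genes, of which 63 were bright enough to be tested, it was -0.13. Single genes differed widely: among the 11 of them that fell it ran from -1.14 for Tuba1b to 0.42 for Ska2. Within replication it ran from -1.31 for Rrm1 to 0.36 for Tyms. On the TMA arrays the median distance of TMA1 from TMA2 and TMA3 was 0.51 for replication, 0.44 for the 42 mitotic genes and 0.17 for the 89 further ones.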

How the data were processed

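Total RNA of 6 samples of TUBO cells was isolated with Trizol and labelled with Illumina's standard method, as the labels' protocols state. Of the deposited tables, the first gives a non-normalized intensity for each probe on each array. None of its values fell below 147.5, and it lacks detection p-values. The authors' normalized values, deposited on a log2 scale, served as an alternative; their method is not given in the sources used here.

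These intensities underwent normexp correction with an offset of 50, quantile normalization and conversion to log2 in limma 3.58.1 under R 4.3.3. Of 25697 probes, 23846 had a gene symbol in the platform annotation. Probes whose mean log2 value exceeded the median of all probes, 12848 in number, entered lmFit and eBayes. The two-sided p-values were adjusted over all of these probes (Benjamini-Hochberg, threshold 0.05). The fit was tested on simulated data. The members, the steps and the other lists were chosen with earlier results of these data known. The text names every member, and of each further list up to 3 genes past the threshold with the largest differences, and where none passed the 2 of smallest p. Ska2, Cenpm and Spag5 were named after their values were seen. Alternatives are given in the closing section. The number of arrays limits the precision. Plots used matplotlib 3.10.9 (Python 3.11.15).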

Additional observations from a re-analysis of the deposited data

How the results depend on the processing

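The median difference of the 42 mitotic genes was below 0 under all 18 alternatives, from -1.17 with array quality weights to -0.59 in the authors' table, and was -0.60 without background correction. No alternative called a mitotic gene higher. The 16 calls became 4 with no background correction, 8 after median scaling, 2 from the authors' values, 10 with the stricter filter above the 75th percentile, which left 21 of the genes to test, 10 with the median over a gene's probes, where Anln, Aurka and Kif2c no longer passed and Cdk1, Nusap1 and Ndc80 were too dim to test, 31 with array quality weights and 0 in an unmoderated test, with 20 there at an unadjusted p under 0.05. They were 13 with an offset of 16 and 16 with cyclic loess or no filter. A trend and robust prior also gave 16, of which 14 were among the main 16. With 1 array left out they ranged from 0 to 26. Calls over all probes, 387, became 198, 129, 135 and 232 under the first 4 of these settings, 1906 with array quality weights and 0 in the unmoderated test, and ranged from 3 to 682 with 1 array left out. Of them 191 were lower, which became 105, 71, 80 and 126 under the first 4 settings and 955 with array quality weights. Lower calls were 141 with an offset of 16, 205 with cyclic loess and 201 with a trend and robust prior. They were 180 of 25697 without a filter and 106 of 9206 with the median over a gene's probes. Calls among the further mitotic genes, 11, became 3, 5, 2 and 4 under the first 4 settings, 34 with array quality weights and 0 in the unmoderated test, and ranged from 0 to 19 with 1 array left out. Over the single values of the 32 tested genes, 407 kept their side of the threshold, 122 lost it, 33 gained it and 0 reversed. The cause was not tested. Deviations of same-numbered arrays correlated at r = 0.126, 0.0133 and 0.0269, and 4 of 6 arrays correlated best with their own number. These values do not settle whether the numbers mark pairs, and the main fit treated the arrays as unpaired. With the replicate number as a block 18 mitotic genes were called, all 16 among them, with a median of -0.94, 518 probes and 14 further genes.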
